A study of Homo sapiens with 12 samples.

Results

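The human hepatocellular carcinoma line Huh7 was compared with and without lenvatinib in 6 of the series' 12 RNA-seq libraries. The comparison sets 3 libraries of Huh7 with lenvatinib against 3 libraries of Huh7 with DMSO, the solvent, and covers all genes of the deposited table. The series concerns syntaxin 6 (STX6) and resistance to lenvatinib. The other 6 libraries are of a further hepatocellular carcinoma line, PLC/PRF/5, again 3 with lenvatinib and 3 with DMSO. No genetic change is named for any group, and the sources used here state neither the dose nor the length of exposure. Nothing says whether replicates were separate cultures, so p-values measure only how these libraries scatter, and that scatter may be technical.

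Lenvatinib, a drug taken by mouth for advanced liver cancer, blocks several receptor tyrosine kinases. Its targets are the receptors for VEGF and FGF together with PDGFRA, KIT and RET. They pass their signal on through RAS and ERK and through PI3 kinase. In hepatocytes FGFR4, with its co-receptor KLB, is the receptor of the gut hormone FGF19, which holds back bile acid synthesis. The best known early readout of such inhibitors is the loss of ERK feedback genes, and the account below concerns mainly the genes outside that group.

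Total counts were between 70302571 and 75820318 per Huh7 library. Transcripts of the mitochondrial genome took 6.58 ± 0.281% of counts with lenvatinib and 5.64 ± 0.0600% with DMSO (SD, n = 3 each). All 14 hepatocyte and hepatoma markers had counts, and their summed level was 7028 to 10390 CPM with lenvatinib and 5519 to 5684 with DMSO (in this paragraph CPM are counts scaled by library totals, and elsewhere with TMM factors). The sum was carried by ALB, TF and APOB. TTR was at 47.3 to 60.3 CPM with lenvatinib and 145.3 to 163.3 with DMSO, AFP at 335.7 to 407.2 and 502.1 to 511.6, and FOXA2 at 72.9 to 78.9 and 79.6 to 85.8, all lower with lenvatinib. Leukocyte markers (4 genes) summed to 1.93 to 4.03 CPM with lenvatinib and 1.05 to 1.78 with DMSO, CD3E being at 0 in 5 libraries. Endothelial markers (3 genes) summed to 4.37 to 4.55 and 3.82 to 4.21 CPM, nearly all of it PECAM1, with CDH5 at 0 in 5 libraries. Fibroblast and stellate markers (5 genes) summed to 100.3 to 120.1 CPM with lenvatinib and 161.2 to 162 with DMSO, mostly LUM and COL1A1, with DCN at 0 in 3 libraries. Cholangiocyte markers (3 genes) summed to 285.1 to 312.6 and 298.7 to 301.6 CPM, nearly all of it KRT19. The part of other cells in the results was not tested. Lenvatinib and DMSO libraries separated on the leading principal component, with 42.7% of the variance. The next one, with 15.9%, set lenvatinib library 2 (score -45.2) against lenvatinib library 3 (score 44.2). Results that turn on either of these libraries are given with and without it. In RNA from whole cultures, fewer cells that express a gene and less of its RNA per cell cannot be told apart.

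Lenvatinib changed a large part of the Huh7 transcriptome. Of 17312 genes with a mean of at least 0.5 CPM, 3753 (21.7%) passed edgeR's quasi-likelihood F test at an adjusted p (Benjamini-Hochberg over all genes) under 0.05. With lenvatinib 1765 genes (10.2%) rose and 1988 (11.5%) fell. Of the called genes, 49.5% moved by less than 1.5-fold. At least 2-fold rises numbered 420 (2.43%) and at least 2-fold falls 428 (2.47%), together 4.9% of the genes tested. There were 100 rises and 110 falls of 4-fold or more. The median log2 fold change over all genes tested was 0.01. Leaving out DMSO library 1, 2 or 3 lowered the number of calls to 2491, 2463 and 2475, and the rises to 1121, 1109 and 1138. The falls numbered 1370, 1354 and 1337 in those fits. Without lenvatinib library 1 the rises numbered 1145 and the falls 1415. There were 3136 calls without lenvatinib library 2 and 3491 without lenvatinib library 3. Counts given below for gene lists with a library left out are to be read beside this general loss of calls. Scaled by library totals alone, 51.8% of the calls were rises, against 47.0% with TMM factors, which correct for a few strongly changed genes.

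**Figure D1:**
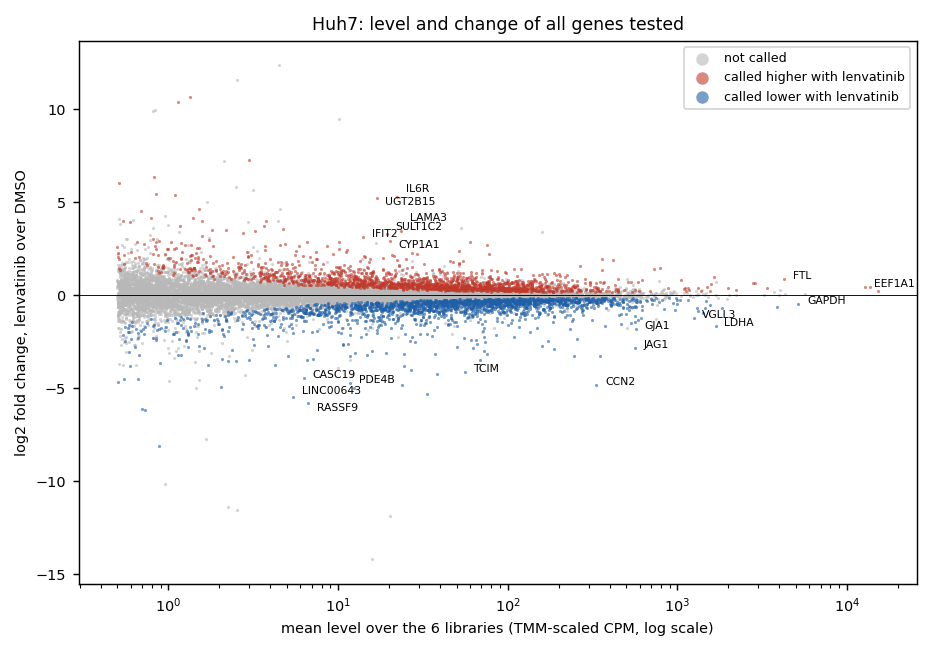
Each point is a gene tested in Huh7, with its mean level over the 6 libraries (TMM-scaled CPM, log axis) against its log2 fold change, lenvatinib over DMSO, and red and blue points passed the test upward and downward. The 1765 rises and 1988 falls spread over the whole range of levels, and IL6R above and RASSF9 and CCN2 below are among the called genes farthest from 0, while some grey points lie farther out without passing.

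Genes of ERK feedback fell in most cases. Of 28 measured genes of that list, 15 fell and 2 rose, with a median log2 fold change of -1.34, against 0.01 over all genes. SPRY4, an inhibitor of receptor kinase signalling, had 2.10, 1.11 and 1.65 CPM with lenvatinib, against 56.6, 68.2 and 71.6 CPM with DMSO. The ERK phosphatase DUSP6 fell by 4.98 ± 0.20 (SE) on the log2 scale. These genes are left out of the ranking that follows, which takes the 12 largest rises and falls among called genes with a mean of at least 5 CPM and groups that do not overlap. By itself that last condition says little, since the groups did not overlap in 41.7% of all genes tested.

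The 4 sequences that follow are the start regions of the 2 largest rises in that ranking, IL6R and UGT2B15, and of RASSF9 and CCN2, the largest and the third largest fall, shown so that their motifs can be read beside the changes. They run from 250 bases before the annotated start to 50 after it, on the gene's own strand, from RefSeq on GRCh38.p14, a later build than the hg19 that the submitters' processing notes name. LINC00643, between those falls in size, is not shown. Capitals mark matches to the motifs searched on both strands.
IL6R, chr1:154405093-154405392, plus strand: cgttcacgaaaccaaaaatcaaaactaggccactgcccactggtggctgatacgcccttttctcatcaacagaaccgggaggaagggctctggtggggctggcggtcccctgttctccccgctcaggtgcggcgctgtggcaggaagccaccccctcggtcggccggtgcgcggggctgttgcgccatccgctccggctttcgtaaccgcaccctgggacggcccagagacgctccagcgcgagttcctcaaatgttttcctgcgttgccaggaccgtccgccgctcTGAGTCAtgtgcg
UGT2B15, chr4:68670603-68670902, minus strand: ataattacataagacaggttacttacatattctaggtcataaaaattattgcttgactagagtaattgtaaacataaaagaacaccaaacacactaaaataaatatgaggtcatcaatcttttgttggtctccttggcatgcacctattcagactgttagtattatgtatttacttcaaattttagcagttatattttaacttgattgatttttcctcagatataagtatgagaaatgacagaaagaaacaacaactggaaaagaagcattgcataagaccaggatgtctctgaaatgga
RASSF9, chr12:85836360-85836659, minus strand: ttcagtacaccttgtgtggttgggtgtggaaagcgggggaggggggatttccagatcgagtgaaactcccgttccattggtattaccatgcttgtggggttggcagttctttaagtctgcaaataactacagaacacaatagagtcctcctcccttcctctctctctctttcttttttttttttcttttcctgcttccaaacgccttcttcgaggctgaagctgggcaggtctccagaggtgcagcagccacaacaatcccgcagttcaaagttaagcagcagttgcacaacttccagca
CCN2, chr6:131951323-131951622, minus strand: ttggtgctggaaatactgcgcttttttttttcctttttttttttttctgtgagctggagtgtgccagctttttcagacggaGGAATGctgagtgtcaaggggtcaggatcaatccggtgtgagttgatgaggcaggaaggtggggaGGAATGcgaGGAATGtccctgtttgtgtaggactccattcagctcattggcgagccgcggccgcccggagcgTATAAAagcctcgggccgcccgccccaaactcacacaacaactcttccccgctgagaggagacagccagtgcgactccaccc

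The CCN2 window held GGAATG, the core of the TEAD motif, at 3 places (-169, -104 and -95 from the start) and a TATAAA box at -32. GGAATG was found in 10.95% of the 11475 matched windows of genes tested, in 13.1% of the 274 windows of at least 2-fold rises and in 15.4% of the 280 windows of at least 2-fold falls. The IL6R window held an AP-1 match (TGANTCA) at 38 bases after the start, a motif in 4.53% of all windows, 8.03% of the 2-fold rises and 6.07% of the 2-fold falls. The windows of UGT2B15 and RASSF9 matched none of the motifs. The E2F motif TTTGGCGC stood in 1.05% of all windows, in 3.57% of the 2-fold falls and in 0 of 274 windows of 2-fold rises. The ETS motif CCGGAAGT was found in 8.31% of all windows, in 1.82% of the 2-fold rises and in 2.14% of the 2-fold falls. Among called genes of any fold change it was in 4.563% of 1315 windows of rises and 9.144% of 1542 windows of falls. Its low share among falls was thus limited to the 2-fold falls. TATAAA was found in 6.01% of all windows, 9.12% of the 2-fold rises and 11.1% of the 2-fold falls. For the other motifs the shares are given for the 2-fold rises, the 2-fold falls and all windows, in that order. TTTCCCGC (E2F) was in 1.095%, 4.29% and 2.49%, and CACGCNA (AHR) in 4.75%, 2.86% and 7.11%. ACGTG (HIF) was in 18.6%, 25.7% and 26.3%, and TGACNNNGC (NRF2) in 15.3%, 12.1% and 15.2%. TGANGCAAT (ATF4 with C/EBP) was in 0.730%, 0.714% and 0.514%. Shares in the windows of called rises and falls of any fold change follow, in that order. ACGTG was in 22.36% and 28.99%, GGAATG in 11.33% and 12.26% and TGANTCA in 5.475% and 4.15%. TATAAA was in 6.692% and 6.355%, TTTGGCGC in 0.4563% and 2.399% and TTTCCCGC in 2.205% and 3.632%. CACGCNA was in 6.236% and 6.096%, TGACNNNGC in 16.12% and 14.46% and TGANGCAAT in 0.4563% and 0.5188%. A match is only a match of letters, and no test was made of these shares.

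The largest rise among called genes with a mean of at least 5 CPM was that of IL6R, the ligand-binding receptor of interleukin 6, a cytokine that drives the acute phase response of the liver. IL6R had 45.0, 39.4 and 46.3 CPM with lenvatinib, against 0.659, 1.06 and 1.62 CPM with DMSO. The groups lay far apart, and the log2 fold change was 5.29 ± 0.33 (edgeR adjusted p = 0.000199). IL6ST, the signalling subunit gp130 that IL6R needs, had 203.6, 204.7 and 204.3 CPM with lenvatinib, against 132, 136.5 and 119.3 CPM with DMSO. It rose by 0.66 ± 0.06 on the log2 scale. Another receptor among the largest rises, the neurotrophin receptor NGFR, had 11.8, 5.99 and 17.0 CPM with lenvatinib, against 1.12, 1.67 and 2.02 CPM with DMSO. Lenvatinib library 2 was the lowest of its group for NGFR. That the groups did not overlap was a condition of the ranking.

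Enzymes that conjugate steroids, bile acids and drugs made up a further group of large rises. The glucuronosyltransferase UGT2B15, which acts on androgens and phenols, had 35.5, 34.8 and 28.6 CPM with lenvatinib, against 1.25, 0.379 and 1.04 CPM with DMSO (log2 fold change 5.21 ± 0.44). The sulfotransferase SULT1C2 averaged 35.3 ± 2.28 CPM with lenvatinib and 3.58 ± 0.964 with DMSO (SD, n = 3 each; 3.30 ± 0.21). SULT2A1, which sulfates steroids and bile acids, had 133.8, 156.5 and 105.3 CPM with lenvatinib, against 17.6, 20.7 and 21.7 with DMSO (2.72 ± 0.16). The xenobiotic-oxidising cytochrome CYP1A1, the best known target of the aryl hydrocarbon receptor, had 32.4, 41.2 and 33.1 CPM with lenvatinib, against 5.04, 3.88 and 5.29 with DMSO (2.91 ± 0.17). For these genes every lenvatinib library was several times above every DMSO library.

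The other large rises were in genes of varied function. LAMA3, the alpha chain of the epithelial laminin 332, had 42.3, 37.3 and 49.8 CPM with lenvatinib, against 4.70, 3.92 and 3.02 CPM with DMSO (3.48 ± 0.20). NUPR1, a stress-induced chromatin protein, had 118.6, 108.1 and 89.4 CPM with lenvatinib, against 16.4, 13.8 and 13.7 with DMSO (2.85 ± 0.13). IFIT2 and IFIH1, an interferon-induced RNA-binding protein and a sensor of double-stranded RNA, rose by 3.15 ± 0.25 and 2.65 ± 0.20. S100A14, a calcium-binding protein of epithelia, and PLA1A, a secreted phospholipase, rose by 2.83 ± 0.15 and 2.67 ± 0.39. In each of these genes the lowest lenvatinib library was above the highest DMSO library, which the ranking required.

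**Figure D2:**
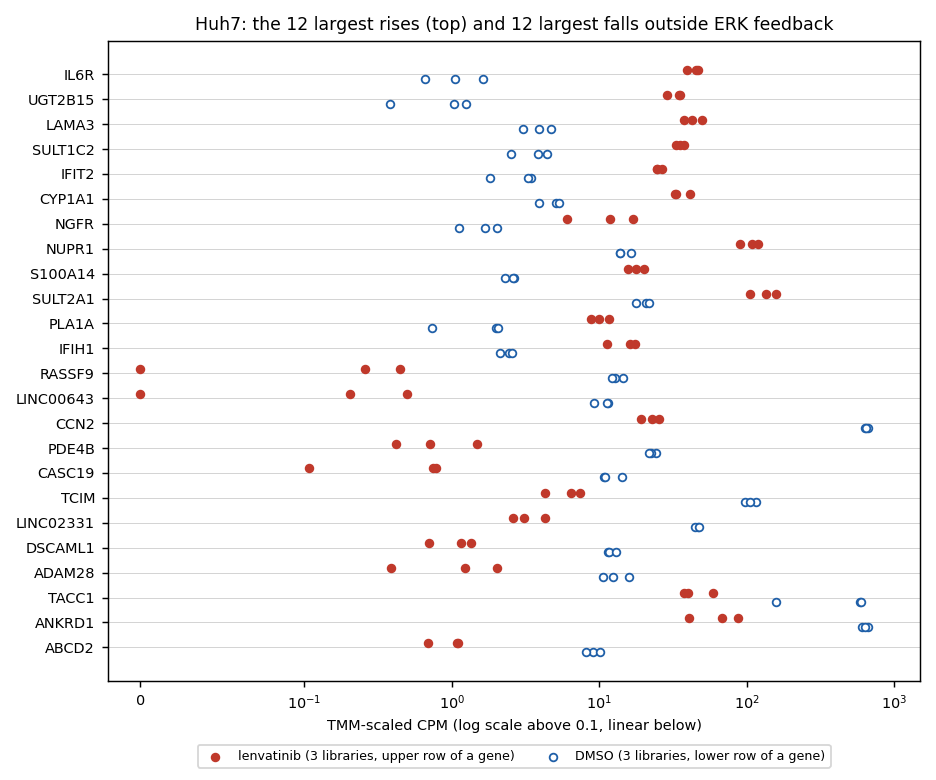
Each row is a gene and each dot a library (TMM-scaled CPM, log axis above 0.1), filled for lenvatinib and open for DMSO, with the 12 largest rises above the 12 largest falls. The filled and open dots separate in every row because the ranking took only such genes. TACC1 has 1 open dot at 158 CPM far below its other open dots.

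At the other end, RASSF9 was nearly lost. RASSF9, a Ras-association domain protein of recycling endosomes, had 0.258, 0 and 0.443 CPM with lenvatinib (19, 0 and 32 counts), against 14.4, 12.7 and 12.1 CPM with DMSO. The log2 fold change was -5.80 ± 0.93 (edgeR adjusted p = 0.0105). PDE4B, a phosphodiesterase that degrades cyclic AMP, had 0.420, 0.708 and 1.48 CPM with lenvatinib, against 24.1, 22.5 and 21.6 with DMSO (-4.71 ± 0.46). The matrix protein CCN2 had 22.6, 19.2 and 25.3 CPM with lenvatinib, against 634.4, 661.7 and 638.4 CPM with DMSO (-4.85 ± 0.11). ANKRD1, like CCN2 a widely used target of YAP and TEAD, had 67.6, 40.2 and 86.6 CPM with lenvatinib, against 605.6, 662 and 630.6 with DMSO (-3.29 ± 0.31).

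Non-coding and less studied genes stood beside them. TCIM, a small positive regulator of Wnt signalling, had 6.40, 4.26 and 7.33 CPM with lenvatinib, against 97.0, 115.5 and 104.8 with DMSO (log2 fold change -4.14 ± 0.22). The long non-coding RNAs LINC02331, CASC19 and LINC00643 fell, with log2 fold changes of -3.80 ± 0.19, -4.46 ± 0.67 and -5.49 ± 0.99. LINC00643 had 15, 37 and 0 counts with lenvatinib, and its call was lost without DMSO library 2 (adjusted p = 0.0503), DMSO library 3 (adjusted p = 0.0524) or lenvatinib library 1 (adjusted p = 0.0610). ABCD2, a peroxisomal fatty acid transporter, had 0.692, 1.10 and 1.08 CPM with lenvatinib, against 9.08, 8.17 and 10.1 with DMSO (-3.25 ± 0.24). The adhesion molecule DSCAML1 fell by 3.50 ± 0.26 and the metalloprotease ADAM28 by 3.41 ± 0.58. The ADAM28 call was lost without lenvatinib library 1 (adjusted p = 0.0516). TACC1, a centrosomal coiled-coil protein, had 39.7, 37.4 and 58.5 CPM with lenvatinib, against 585, 591.3 and 158.1 with DMSO. DMSO library 3 was far below the other DMSO libraries, and the TACC1 call was lost on leaving out any other library (adjusted p = 0.0522 to 0.0704).

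Ranked by the difference of mean CPM, a relative measure that also depends on transcript length, other genes came first. The changes of all called genes summed to 59115.6 CPM among rises and -77641.4 CPM among falls. The largest gain was that of the translation elongation factor EEF1A1, at 15200, 14010 and 14540 CPM with lenvatinib, against 10780, 11030 and 10980 with DMSO (log2 fold change 0.42 ± 0.04). EEF2, the factor of ribosome translocation, rose by 0.39 ± 0.04. The iron storage chains FTL and FTH1 rose by 0.84 ± 0.09 and 0.83 ± 0.04. Among secreted liver proteins, albumin (ALB) had 3409, 4093 and 2957 CPM with lenvatinib, against 2222, 2153 and 2297 with DMSO, and fibrinogen alpha (FGA) had 1160, 1246 and 1063 CPM, against 430.9, 405.8 and 416.3. The other gains were the chaperone HSP90AA1 (0.64 ± 0.10), the retinal dehydrogenase ALDH1A1 (0.98 ± 0.13), HMG-CoA synthase HMGCS1 (0.63 ± 0.04) and the autophagy receptor SQSTM1 (1.39 ± 0.05). Lenvatinib library 2 was the highest for ALB, FGA, FTL and ALDH1A1. The ALB call was lost with no filter on low counts (adjusted p = 0.0506).

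The largest losses were in glycolysis, the cytoskeleton and cell contacts. Lactate dehydrogenase LDHA had 783, 863.1 and 785.1 CPM with lenvatinib, against 2471, 2331 and 2857 with DMSO (-1.66 ± 0.08). GAPDH and ENO1, enzymes of the same pathway, fell by 0.46 ± 0.05 and 0.71 ± 0.04. JAG1, a ligand of Notch receptors, had 130.9, 127.1 and 151.2 CPM with lenvatinib, against 975, 1008 and 986.5 with DMSO (-2.86 ± 0.07). GJA1, the gap junction protein connexin 43, had 260.3, 198.4 and 289.4 CPM with lenvatinib, against 863.5, 917.6 and 900.7 with DMSO (-1.84 ± 0.14). VGLL3, a cofactor of TEAD factors, had 711.8, 722.6 and 776.5 CPM with lenvatinib, against 1725, 1788 and 1754 with DMSO (-1.25 ± 0.05). Fibronectin (FN1), keratin 8 (KRT8), the tubulin TUBA1B and the splicing factor HNRNPA2B1 fell by 0.61 ± 0.04, 0.97 ± 0.17, 0.84 ± 0.14 and 0.70 ± 0.04. The KRT8 call was lost with no filter on low counts (adjusted p = 0.0559) and with the replicate block (adjusted p = 0.0550). For the glycolytic enzymes, JAG1, GJA1 and VGLL3 the groups did not overlap.

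**Figure D3:**
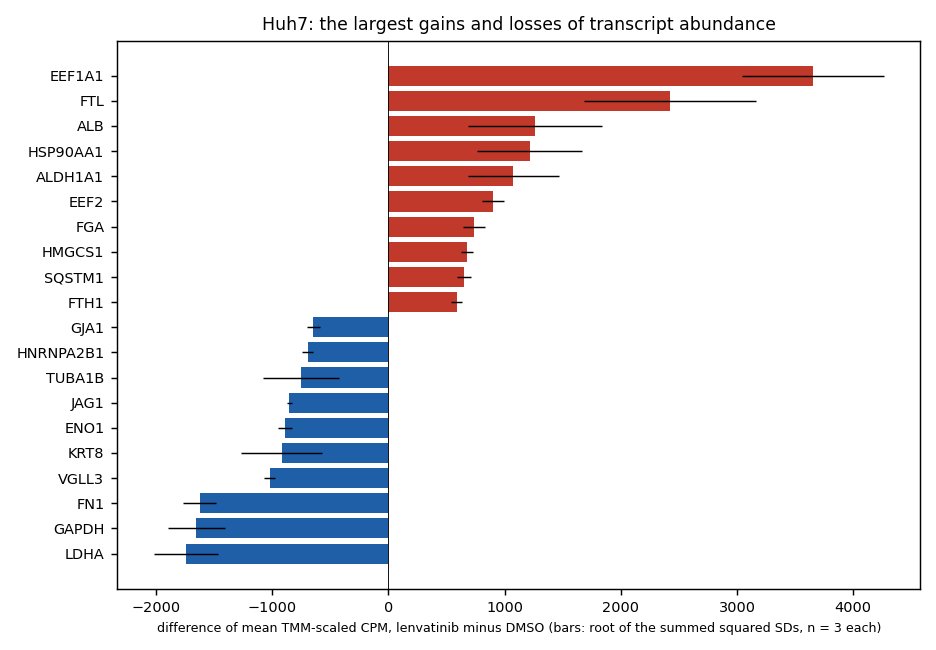
Bars give the difference of mean TMM-scaled CPM, lenvatinib minus DMSO, for the 10 largest gains and the 10 largest losses among called genes, with genes of the mitochondrial genome left out, and thin lines the root of the summed squared SDs (n = 3 each). EEF1A1 gained 3653 CPM and FTL 2424 CPM, while LDHA lost the most, at -1743 CPM.

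The receptors that lenvatinib binds did not move together. PDGFRA, the platelet-derived growth factor receptor alpha, had 3.62, 2.59 and 2.25 CPM with lenvatinib, against 25.8, 26.5 and 28.0 CPM with DMSO. It fell by 3.24 ± 0.19 (edgeR adjusted p = 8.168e-05). The VEGF receptor FLT1 had 4.01, 6.04 and 2.16 CPM with lenvatinib, against 8.29, 8.81 and 9.94 with DMSO, and missed the threshold (-1.15 ± 0.35, adjusted p = 0.0574). FLT1 was called as lower without lenvatinib library 2 (-1.55, adjusted p = 0.0173) or lenvatinib library 3 (-0.84, adjusted p = 0.0457), with DESeq2 (adjusted p = 0.00555) and with limma (adjusted p = 0.0424). FGFR4 was at -0.37 ± 0.15 and not called, but was called without lenvatinib library 2 (-0.56, adjusted p = 0.00735). FGFR3 had 99.2, 190.1 and 101.1 CPM with lenvatinib, against 114.8, 115.9 and 116.3 with DMSO, and its value turned from 0.17 to -0.21 (adjusted p = 0.0355) without lenvatinib library 2. FGFR1 was at -0.28 ± 0.19 and not called. FGFR2 rose by 1.09 ± 0.29 at a low level, a call lost on leaving out any 1 library (adjusted p = 0.0577 to 0.103). KDR had no count in any Huh7 library, and FLT4, KIT and RET had at most 8 counts in a library. STX6 was at 49.0 ± 4.40 CPM with lenvatinib and 50.0 ± 3.76 with DMSO (SD, n = 3 each). Its log2 fold change in counts was -0.03 ± 0.09 (edgeR adjusted p = 0.858). The deposited FPKM of STX6 disagree with its counts, giving 2.32 with limma on log2(FPKM + 1) (adjusted p = 6.286e-05). The cause of this disagreement was not tested.

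Ligands of the same receptors changed in both directions. FGF19, the ligand of FGFR4, had 20.5, 23.6 and 21.5 CPM with lenvatinib, against 8.12, 6.3 and 8.59 CPM with DMSO (1.51 ± 0.15), a call lost in the fit of all 12 libraries (adjusted p = 0.235). PDGFB and PDGFC fell by 1.0 ± 0.11 and 0.85 ± 0.12, while PDGFA rose by 0.67 ± 0.13. The VEGF receptor ligands VEGFA and PGF were at 0.39 ± 0.07 and -0.90 ± 0.17, both called. Of 26 measured growth factors and hepatokines 5 rose and 4 fell (19.2% and 15.4%, median -0.02). Of all genes tested 10.2% rose and 11.5% fell. NR0B2, the nuclear receptor SHP that represses bile acid synthesis, had 0.244, 0.708 and 0.221 CPM with lenvatinib, against 3.24, 2.44 and 2.85 with DMSO (-2.85 ± 0.50). BAAT, which joins bile acids to glycine or taurine, rose by 1.31 ± 0.20, a call also lost in the fit of all 12 libraries (adjusted p = 0.0535). Of 10 measured genes of bile acid synthesis 2 rose and 1 fell (20% and 10%). Here and below, genes named beyond the 4 members of smallest adjusted p in a list, and beyond the rankings above, were chosen after their values were seen.

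Targets of BMP and Wnt signalling gave more falls than rises. Of 20 measured genes of the insulin and IGF axis 3 rose and 5 fell (median -0.21), shares of 15% and 25%. Of all genes tested 10.2% rose and 11.5% fell. The insulin and IGF falls numbered 3 without DMSO library 1, 2 or 3 or lenvatinib library 2. Falls over all genes numbered 1370, 1354, 1337 and 1725 in those fits, against 1988 with all libraries. IGFBP3, the main carrier of IGFs in blood, had 46.8, 27.2 and 59.8 CPM with lenvatinib, against 308.6, 338.8 and 337.8 with DMSO (-2.88 ± 0.31). The adaptor IRS1 fell by 0.75 ± 0.07 and the receptor IGF1R by 0.45 ± 0.06, while the lipid phosphatase INPP4B rose by 2.04 ± 0.42. Among 14 measured targets of BMP and TGF-beta 7 fell and 1 rose (50% and 7.14%, median -0.41). ID1, an inhibitor of bHLH factors and a direct target of BMP signalling, had 184.5, 183.1 and 174.6 CPM with lenvatinib, against 573, 573.2 and 564.5 with DMSO (-1.66 ± 0.04). ID3, ID4, the inhibitory SMAD6 and the bHLH factor ATOH8 fell by 1.19 ± 0.06, 1.05 ± 0.11, 1.19 ± 0.07 and 2.13 ± 0.26. The Wnt feedback list had 7 falls and 1 rise among 14 measured genes (50% and 7.14%, median -0.67). It included the secreted Wnt inhibitor DKK1, at 9.48, 6.64 and 12.5 CPM with lenvatinib, against 41.4, 47.1 and 46.2 with DMSO (-2.23 ± 0.23), and the R-spondin receptor LGR5 (-1.71 ± 0.23). The counts of falls in the BMP and Wnt lists were 6 to 8 and 7 to 8 with any 1 library left out.

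Of 26 measured cytokine and hormone receptors, IL6R and IL6ST included, 4 rose and 4 fell. These are shares of 15.4% and 15.4%, against 10.2% and 11.5% of all genes tested. The death domain receptor TNFRSF21 and the TWEAK receptor TNFRSF12A fell by 0.60 ± 0.06 and 0.72 ± 0.07. The prolactin receptor PRLR rose by 0.90 ± 0.11, a call lost in the fit of all 12 libraries.

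Most genes of homologous recombination fell. Of 27 genes of homologous recombination and Fanconi repair 19 fell and none rose (median -0.68, against 0.01 over all genes tested). The falls were 70.4% of them, against 11.5% of all genes tested, of which 10.2% rose. With any 1 library left out 15 to 19 fell. FANCI, the partner of FANCD2 at stalled forks, had 36.8, 37.8 and 44.9 CPM with lenvatinib, against 102.6, 97.8 and 94.7 with DMSO (-1.30 ± 0.09). The exonuclease EXO1, the tumour suppressor BRCA2 and the helicase BLM fell by 1.59 ± 0.25, 1.15 ± 0.17 and 0.92 ± 0.13. Of 18 genes of pyrimidine and deoxynucleotide synthesis 6 fell (33.3%) and none rose. RRM1, the large subunit of ribonucleotide reductase, had 100.3, 103.3 and 111.8 CPM with lenvatinib, against 215.3, 194.1 and 202.1 with DMSO (-0.96 ± 0.06). Thymidylate synthase TYMS fell by 1.55 ± 0.14. Purine synthesis was near the general shares, with 14.3% called higher and 14.3% lower. IMPDH2 at 0.52 ± 0.04 and GMPS at -0.43 ± 0.08 are its steps to guanine nucleotides. In mismatch and base excision repair 6 fell and 3 rose of 21 (28.6% and 14.3%), led by the flap nuclease FEN1 (-1.32 ± 0.08). Those rises numbered 0 without DMSO library 1 and 1 without DMSO library 3 or any 1 lenvatinib library. MKI67, a marker of cycling cells, moved with these genes, at 448.3, 409.7 and 476.9 CPM with lenvatinib, against 792.6, 784.5 and 784.4 with DMSO (-0.82 ± 0.06). The part of a smaller share of cycling cells in the result was not tested.

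UHRF1, which brings DNMT1 to newly copied DNA, had 11.99, 4.53 and 8.99 CPM with lenvatinib, against 50.7, 54.7 and 39.9 with DMSO (-2.51 ± 0.37). The maintenance methylase DNMT1 fell by 0.64 ± 0.06 and the histone methylase EZH2 by 0.68 ± 0.06, whereas the de novo methylase DNMT3B rose by 0.71 ± 0.11. Of 23 such genes 6 fell and 3 rose (26.1% and 13.0%, against 11.5% and 10.2% of all genes tested). Among 28 nucleoporins, the proteins of the nuclear pore, 14 fell and none rose, but each by less than 1.5-fold (NUP155 -0.47 ± 0.06, NUP93 -0.48 ± 0.07), and 10 to 13 fell with any 1 library left out. SR and hnRNP splicing factors were alike, with 21 falls and 1 rise of 37 (median -0.31) and 15 to 20 falls with any 1 library left out. Examples are HNRNPD (-0.53 ± 0.06) and SRSF3 (-0.41 ± 0.05). Of 15 tubulins 6 fell and 1 rose (40% and 6.67%). TUBB4B, a widely expressed beta tubulin, had 717.9, 712.8 and 720.3 CPM with lenvatinib, against 1235, 1197 and 1245 with DMSO (-0.77 ± 0.04).

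Of 30 genes of RNA polymerase I and ribosome assembly 1 rose and 2 fell (3.33% and 6.67%, against 10.2% and 11.5% of all genes). Translation factors gave 7 rises and 8 falls of 67, shares of 10.4% and 11.9%, and the falls numbered 2 without DMSO library 2 and 4 without DMSO library 1 or 3 or lenvatinib library 1, while the rises numbered 4 without DMSO library 2 or 3 or lenvatinib library 1. Mitochondrial ribosomal proteins gave 1 rise and 9 falls of 86, shares of 1.16% and 10.5%. Their falls numbered 3 without DMSO library 2 and 5 without DMSO library 3 or lenvatinib library 1. Numbered ZNF genes, mostly zinc finger repressors, gave 32 rises and 38 falls of 464, shares of 6.90% and 8.19% that are below the 10.2% and 11.5% of all genes. Without single libraries the ZNF rises numbered as few as 12 (DMSO library 2 or 3), 14 (DMSO library 1), 17 (lenvatinib library 2) and 18 (lenvatinib library 1), and the falls 16 (DMSO library 3), 20 (DMSO library 1 or 2), 22 (lenvatinib library 2) and 24 (lenvatinib library 1). Of 13 mRNAs of the mitochondrial genome 4 rose and none fell, MT-ND2 by 0.39 ± 0.05, and 2 rose without DMSO library 1, 2 or 3. List counts of 2 or fewer, here and in the other lists, ran from 0 to 3 with 1 library left out.

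**Figure D4:**
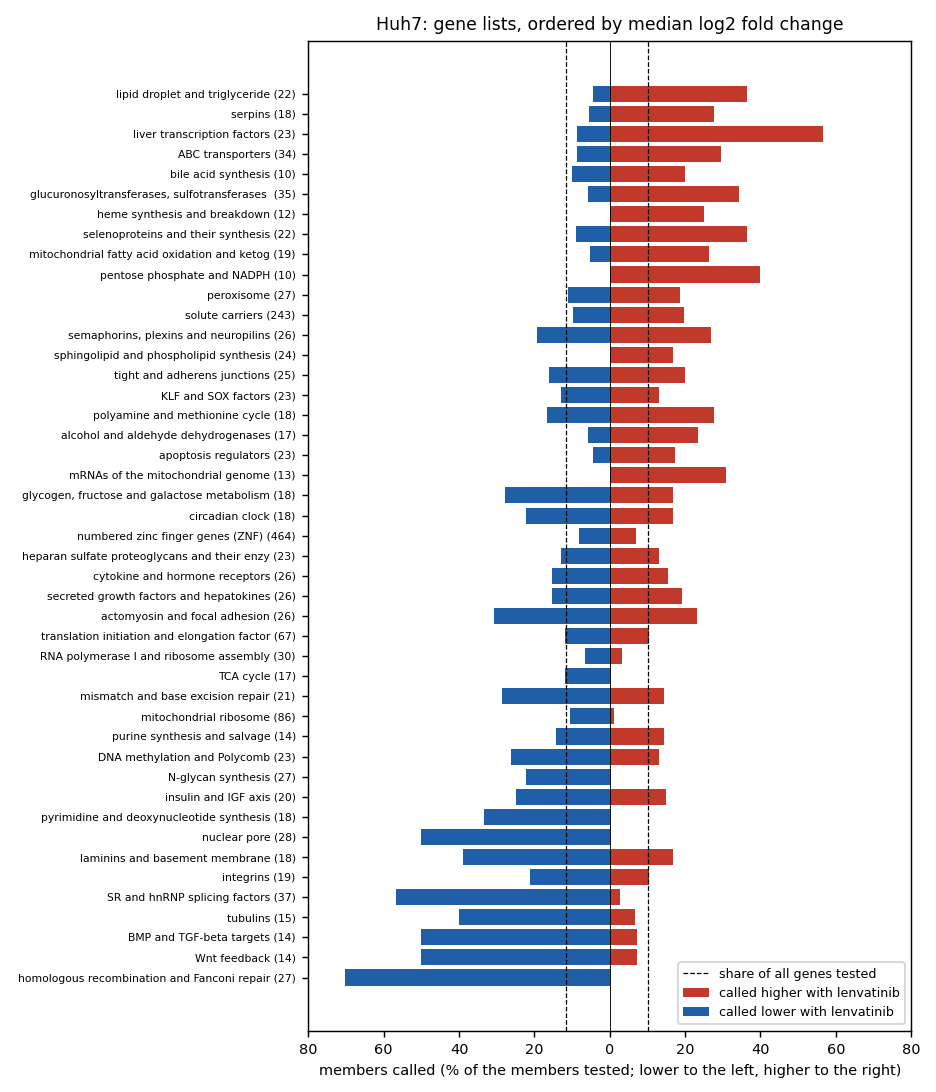
Each row is a gene list with the number of members tested, and its bars give the percent of them called higher (red, to the right) and called lower (blue, to the left) with lenvatinib, ordered by median log2 fold change, with the shares of all genes tested (10.2% and 11.5%) as dashed lines. Homologous recombination stands at 70.4% lower, splicing factors at 56.8% lower and liver transcription factors at 56.5% higher.

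Transcription factors of the liver rose in most cases. Of 23 measured, 13 rose and 2 fell (median 0.53), and 10 to 13 rose with any 1 library left out. The shares were 56.5% and 8.70%, against 10.2% and 11.5% of all genes tested. CEBPA, which drives hepatocyte metabolism, had 302.1, 341.3 and 231.9 CPM with lenvatinib, against 137.3, 151.7 and 151.1 with DMSO (0.99 ± 0.14). HNF4A, a nuclear receptor at the head of the hepatocyte programme, rose by 0.62 ± 0.11, PROX1 by 0.75 ± 0.10, FOXA3 by 0.67 ± 0.09 and GATA4 by 0.62 ± 0.10. NR1I2, the xenobiotic receptor PXR, rose from a low level by 2.87 ± 0.40, with 1.49, 1.68 and 1.29 CPM with lenvatinib, against 0.258, 0.203 and 0.146 with DMSO. HNF4G fell by 0.78 ± 0.17 and PPARG by 0.45 ± 0.08. The HNF4G call was lost without DMSO library 1 or 3. SOX9, a factor of bile duct and progenitor cells, had 18.7, 23.3 and 19.5 CPM with lenvatinib, against 109.1, 108.7 and 110.3 with DMSO (-2.42 ± 0.10). KLF4, an epithelial factor, rose by 1.24 ± 0.18. Both belong to the KLF and SOX factors, of which 3 rose and 3 fell among 23 measured (13.0% and 13.0%). Only 1 rose without DMSO library 1, 2 or 3 or lenvatinib library 2 or 3, and 5 fell without lenvatinib library 2.

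Among detoxifying enzymes and exporters, rises outnumbered falls, though most members were not called. Of all genes tested 10.2% rose and 11.5% fell. Of 35 measured glucuronosyltransferases, sulfotransferases and glutathione transferases 12 rose and 2 fell (34.3% and 5.71%, median 0.27), with 8 of the rises at least 2-fold. UGT2B17 was at 1.79, 1.55 and 1.52 CPM with lenvatinib, against 0, 0.0542 and 0 with DMSO, so that the size of its rise depends on a few counts. The glutathione transferase GSTA2 rose by 2.95 ± 0.30, a call lost in the fit of all 12 libraries (adjusted p = 0.0775), and GSTO1 fell by 0.58 ± 0.05. Members of the UGT2B, SULT and GSTA families are close in sequence, and their counts can be split between copies. Among 17 alcohol and aldehyde dehydrogenases 4 rose and 1 fell (23.5% and 5.88%), with ADH6 at 2.05 ± 0.23. Of 34 ABC transporters 10 rose and 3 fell (29.4% and 8.82%, median 0.42). Only 1 ABC transporter fell without DMSO library 2 or 3 or lenvatinib library 1. The canalicular exporter ABCC2 had 59.4, 62.6 and 52.6 CPM with lenvatinib, against 24.2, 23.9 and 22.1 with DMSO (1.31 ± 0.09). ABCB1, the drug efflux pump P-glycoprotein, had 111.7, 114 and 111.1 CPM with lenvatinib, against 59.9, 59.5 and 67.0 with DMSO (0.85 ± 0.07). ABCC3 and ABCA1 rose by 0.94 ± 0.16 and 0.86 ± 0.12.

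Solute carriers, the uptake and exchange proteins, were the largest family with a surplus of rises, 48 against 24 falls among 243 measured (19.8% and 9.88%). Of all genes tested 10.2% rose and 11.5% fell, so the falls were near the general share. Without DMSO library 1, 2 or 3 or lenvatinib library 1 the rises numbered 27, 31, 28 and 30. Rises over all genes numbered 1121, 1109, 1138 and 1145 in those fits, against 1765 with all libraries. The zinc exporter SLC30A1 had 78.1, 86.4 and 71.9 CPM with lenvatinib, against 26.4, 23.7 and 22.9 with DMSO (1.70 ± 0.10). The amino acid carrier SLC43A1 rose by 1.16 ± 0.05. SLC38A2, a sodium-coupled importer of neutral amino acids, had 231.9, 207.7 and 269.4 CPM with lenvatinib, against 702, 702.9 and 693.9 with DMSO (-1.57 ± 0.09). The glucose carrier SLC2A1 and the glutamate carrier SLC1A7 fell by 1.41 ± 0.17 and 3.74 ± 0.39. The cystine importer SLC7A11 rose by 1.27 ± 0.21.

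Of 22 genes of lipid droplets and triglycerides 8 rose and 1 fell (median 0.66), shares of 36.4% and 4.55%. Of all genes tested 10.2% rose and 11.5% fell. The lipid droplet rises numbered 5 without DMSO library 2 and 4 without DMSO library 3. PLIN2, the coat protein of lipid droplets, had 151.6, 162 and 140.3 CPM with lenvatinib, against 77.1, 72.0 and 76.1 with DMSO (1.01 ± 0.07). The phosphatidate phosphatase LPIN1 and the triglyceride synthase DGAT1 rose by 0.96 ± 0.09 and 0.80 ± 0.12, and MTTP, which loads lipid onto lipoproteins, fell by 0.89 ± 0.12. SPTLC3, a subunit of the enzyme that starts sphingolipid synthesis, had 46.0, 53.7 and 35.02 CPM with lenvatinib, against 10.4, 8.36 and 9.61 with DMSO (2.25 ± 0.17). Of 24 genes of sphingolipid and phospholipid synthesis 4 rose (16.7%) and none fell. Fatty acid oxidation and ketogenesis gave 5 rises and 1 fall of 19 (26.3% and 5.26%), with 3 rises without DMSO library 1 or 2. CPT1A, which admits fatty acids to mitochondria, rose by 0.79 ± 0.06. Of 27 peroxisomal genes 5 rose and 3 fell (18.5% and 11.1%), with 1 fall without DMSO library 2 or 3 or lenvatinib library 1. Of 17 genes of the TCA cycle none rose and 2 fell, with IDH3A at -0.81 ± 0.11. The falls in these 2 lists were near the general share, the TCA cycle being at 11.8%.

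Of 10 genes of the pentose phosphate pathway and NADPH supply 4 rose (40%) and none fell. The dehydrogenase PGD among them had 452.3, 466.1 and 423.6 CPM with lenvatinib, against 279.5, 288.4 and 281.1 with DMSO (0.66 ± 0.05). Of all genes tested 10.2% rose and 11.5% fell. Shares called higher and lower were 16.7% and 27.8% for glycogen, fructose and galactose metabolism and 36.4% and 9.09% for selenoproteins. They were 25% and 0% for heme and 27.8% and 16.7% for polyamines and methionine. Genes of glycogen, fructose and galactose metabolism gave 3 rises and 5 falls of 18, with 3 falls without DMSO library 2 or 3 or lenvatinib library 2, 1 rise without lenvatinib library 1, and the glycogen branching enzyme GBE1 at -0.66 ± 0.09. Of 22 genes for selenoproteins and their synthesis 8 rose and 2 fell, with 4 rises without DMSO library 1, 2 or 3 or lenvatinib library 1, and 5 without lenvatinib library 3. SEPHS2, which makes the selenium donor, rose by 0.73 ± 0.05 and the selenium carrier SELENOP by 0.82 ± 0.10. Of 12 genes of heme synthesis and breakdown 3 rose, with heme oxygenase HMOX1 at 1.37 ± 0.13. In the polyamine and methionine group 5 of 18 rose and 3 fell, with 1 fall without DMSO library 1, 2 or 3. MAT1A, the methionine adenosyltransferase of adult liver, had 2.47, 1.90 and 2.07 CPM with lenvatinib, against 0, 0.149 and 0 with DMSO, a call lost without lenvatinib library 1 (adjusted p = 0.0545). SAT1, which breaks down polyamines, rose by 0.76 ± 0.08.

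Matrix and adhesion genes changed in both directions, as did all genes tested (10.2% called higher and 11.5% lower). Shares called higher and lower were 13.0% and 13.0% for heparan sulfate proteoglycans and 10.53% and 21.05% for integrins. They were 20% and 16% for junctions, 16.7% and 38.9% for laminins and basement membrane, and 23.1% and 30.8% for actomyosin and focal adhesion. Of 18 laminin and basement membrane genes 7 fell and 3 rose, with 4 falls without DMSO library 1, 2 or 3 or lenvatinib library 1. The laminin 332 chains LAMA3 and LAMB3 rose by 3.48 ± 0.20 and 1.69 ± 0.21, whereas LAMB1, a chain of other laminins, had 198.6, 194.5 and 206.7 CPM with lenvatinib, against 346.3, 351.8 and 356.5 with DMSO (-0.81 ± 0.04). Of 19 integrins 4 fell and 2 rose, with 2 falls without DMSO library 1 or 2 and 1 without lenvatinib library 1. ITGAV, the alpha V chain that binds fibronectin and vitronectin, had 291, 294.5 and 286.4 CPM with lenvatinib, against 587.5, 637.9 and 624.6 with DMSO (-1.08 ± 0.05). Its partner ITGB1 fell by 0.55 ± 0.11, a call lost without lenvatinib library 1 (adjusted p = 0.0518). Of 23 genes of heparan sulfate proteoglycans 3 rose and 3 fell, with the syndecan SDC4 at 1.07 ± 0.09 and the glypican GPC4 at -1.21 ± 0.18, and 5 fell without lenvatinib library 2. Actomyosin and focal adhesion genes gave 6 rises and 8 falls of 26. The rises were 3 without DMSO library 2 or 3 or lenvatinib library 1, and the falls 4 without DMSO library 1, 5 without DMSO library 2 or lenvatinib library 3 and 3 without DMSO library 3 or lenvatinib library 1. The tropomyosin TPM1 fell by 0.99 ± 0.10. Junction genes gave 5 rises and 4 falls of 25, with 2 falls without lenvatinib library 1.

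Semaphorins, secreted and membrane-bound guidance cues, and their plexin and neuropilin receptors gave 7 rises and 5 falls of 26 (26.9% and 19.2%). Of all genes tested 10.2% rose and 11.5% fell. The semaphorin list had 4 rises without DMSO library 2 or lenvatinib library 1. SEMA3D had 104.8, 109 and 100.6 CPM with lenvatinib, against 52.6, 52.7 and 50.8 with DMSO (1.01 ± 0.06). SEMA6A rose by 1.19 ± 0.13, while SEMA3E and its receptor PLXND1 fell by 0.57 ± 0.06 and 0.49 ± 0.06, the SEMA3E call being lost in the fit of all 12 libraries (adjusted p = 0.330). Genes of N-glycan synthesis gave 6 falls (22.2%) and no rise of 27. Both catalytic subunits of the oligosaccharyltransferase fell, STT3B (-0.41 ± 0.04) and STT3A (-0.28 ± 0.05). The serpin family, which is not limited to secreted liver proteins, gave 5 rises and 1 fall of 18 (27.8% and 5.56%). Its rises numbered 3 without DMSO library 2 or 3 or lenvatinib library 1 or 2. SERPINF2, the inhibitor of plasmin, had 82.3, 123.1 and 53.7 CPM with lenvatinib, against 15.4, 15.01 and 18.9 with DMSO (2.39 ± 0.32).

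Of 23 regulators of cell death 4 rose and 1 fell (17.4% and 4.35%, against 10.2% and 11.5% of all genes). BCL2L1, which encodes the survival protein BCL-XL, had 102.2, 89.2 and 114.3 CPM with lenvatinib, against 371.8, 426.6 and 295.9 with DMSO (-1.84 ± 0.16). BCL2L11, which encodes the pro-apoptotic BIM, had 112.8, 123.9 and 98.5 CPM with lenvatinib, against 74.1, 69.0 and 74.5 with DMSO (0.62 ± 0.09), a call lost in the fit of all 12 libraries (adjusted p = 0.194). CASP8, an initiator caspase of death receptors, rose by 0.89 ± 0.15. Of 18 genes of the circadian clock 3 rose and 4 fell (16.7% and 22.2%). The repressor PER2 was at -1.55 ± 0.19 and the nuclear receptor NR1D1 at 1.16 ± 0.23. Only 2 fell without any 1 DMSO library or without lenvatinib library 1 or 2.

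Calls came mostly from protein-coding genes. By RefSeq annotation 25.9% of 13189 protein-coding genes were called, against 12.9% of 854 long non-coding RNAs, 7.14% of 812 pseudogenes, 5.13% of 39 other RNAs and 6.78% of 2418 lines with no match. Among protein-coding genes alone 1577 rose and 1842 fell. The 10.2% and 11.5% set beside the gene lists are shares of all these classes together. The classes were not matched for level, and its part in the difference was not tested. Among the genes tested, 3 with at most 3 counts in every DMSO library had at least 20 in every lenvatinib library. None of the genes tested showed the opposite. Lines with a mean under 0.5 CPM were not searched for this. INO80B-WBP1, a readthrough transcript, had 237, 232 and 129 counts with lenvatinib and 0 in each DMSO library, while its parts INO80B and WBP1 were at -0.29 ± 0.18 and -0.09 ± 0.12 and not called. AC098582 had 191, 213 and 100 counts with lenvatinib and 0 in each DMSO library. The small nucleolar RNA SNORD36A had 64, 52 and 106 counts with lenvatinib and 1 in each DMSO library, while its host gene RPL7A was at 0.07 ± 0.12 and not called. Exons of 87 of the 216 named genes found in GENCODE 29 overlap another annotated gene, among them IFIT2, NGFR, PDGFRA, JAG1, KRT8, BCL2L1, BCL2L11, DKK1, LGR5, SELENOP, FTH1, SQSTM1, TYMS and STX6. EEF1A1, the ferritins and the tubulins have near copies. The sources used here do not say how reads from shared stretches were counted, so these values are uncertain.

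The largest changes were then compared with those in PLC/PRF/5, whose libraries have DMSO controls of their own. The difference of the responses was called for 2254 of 17978 genes (12.5%) in a fit of all 12 libraries. Of the 24 genes ranked above, UGT2B15 and LINC00643 were left out, being at 0 or nearly so in PLC/PRF/5 libraries. The difference passed the test for 19 of the other 22. SULT2A1, DSCAML1 and ADAM28 averaged under 0.5 CPM in both PLC/PRF/5 groups and entered the fit only through Huh7. For genes picked for a large change in Huh7 a larger value there is partly a matter of choice, so the values are given as a description. LAMA3 changed by 3.47 ± 0.16 in Huh7 and by 0.16 ± 0.14 in PLC/PRF/5. IFIH1 changed by 2.64 ± 0.17 in Huh7 and by -0.55 ± 0.16 in PLC/PRF/5, both called. CYP1A1 was at 2.91 ± 0.24 in Huh7 and 0.19 ± 0.22 in PLC/PRF/5. Shared in direction were IL6R (5.28 ± 0.41 and 1.13 ± 0.34), NUPR1 (2.84 ± 0.17 and 1.14 ± 0.16), CCN2 (-4.85 ± 0.11 and -1.80 ± 0.10) and ANKRD1 (-3.29 ± 0.23 and -2.05 ± 0.23), with Huh7 given first in each pair. In all 4 of the 11 rises were also called higher in PLC/PRF/5, and 3 of the 11 falls were also called lower there. PLA1A, 1 of those 4 rises, was low in PLC/PRF/5, averaging 0.8885 CPM with lenvatinib and 0.217 with DMSO.

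**Figure D5:**
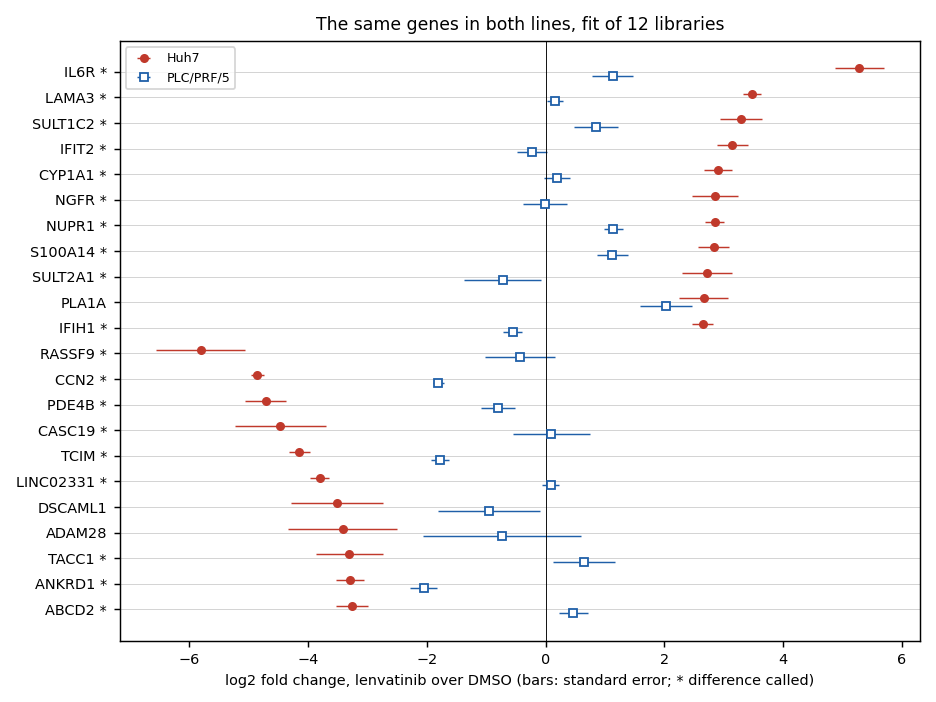
Log2 fold changes, lenvatinib over DMSO, of the 22 genes that could be compared, with their standard errors, in Huh7 (filled circles) and PLC/PRF/5 (open squares), and an asterisk where the difference was called. LINC02331, CASC19, NGFR and LAMA3 lie near 0 in PLC/PRF/5. PLA1A lies at 2.66 in Huh7 and at 2.03 in PLC/PRF/5, where its level was low (0.8885 CPM with lenvatinib, 0.217 with DMSO).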

How the data were processed

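Per the labels, RNA of Huh7 and PLC/PRF/5 cells was read as single ends on a BGIseq500, with HISAT2 and hg19 listed in the submitters' processing notes. The sources used here name no counting program, annotation or strand setting. The deposited table pairs 40825 lines with symbols (35612 distinct, 2803 on several lines) and gives, per the file headers, counts and FPKM made by the authors for each library. The deposited values are whole numbers but behave as estimated counts that were rounded up, a step described nowhere in the sources used here: of 5421 low values compared with the reads implied by FPKM, 85.4% lay 0 to 1 above them (tolerance 0.05). They were used as given. Another 12 columns, of 6 libraries of a different cell line, were not used.

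The 6 Huh7 libraries were fitted with edgeR 4.0.16 (R 4.3.3; quasi-likelihood F test, robust; TMM factors; mean CPM of at least 0.5; Benjamini-Hochberg, threshold 0.05). Each standard error was taken as the size of the fold change (log2) divided by √F. The common biological coefficient of variation was 0.262. The difference between lines used all 12 libraries. FPKM entered only an alternative, limma 3.58.1 on log2(FPKM + 1). Other alternatives used DESeq2 1.42.0, other scalings and filters, a replicate block and each library left out. Tables and figures used Python 3.11.15, numpy 2.4.6, pandas 2.3.3 and matplotlib 3.10.9.

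Named genes are the 12 largest rises and falls (mean CPM of at least 5, no overlap, outside ERK feedback), up to 4 members of smallest adjusted p (mean CPM of at least 1) in each of 45 lists, the 10 largest CPM gains and losses, lines with at most 3 counts in one group and at least 20 in the other, and STX6 with the lenvatinib receptors. The lines with few counts in one group were sought only among the genes tested. These genes and lists were chosen with earlier results of these data known. The fits were also tested on simulated data, where the Huh7 fit made more false calls than the threshold allows and most 1.5-fold changes were missed. A few genes that the rule names are not reported here.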

Additional observations from a re-analysis of the deposited data

Results flagged for a closer look

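The difference of the responses (edgeR quasi-likelihood F test, Huh7 minus PLC/PRF/5, adjusted over 17978 genes) was called for 12.5% of all genes. It was called for 19 of the 22 largest Huh7 changes that could be compared. Those genes were picked for a large Huh7 change in the same libraries. That choice favours a call, so the values are given as a description. Among rises, the difference on the log2 scale was 4.15 for IL6R, 3.32 for LAMA3, 2.45 for SULT1C2, 3.38 for IFIT2, 2.72 for CYP1A1 and 2.86 for NGFR. It was 1.71 for NUPR1, 1.71 for S100A14, 3.44 for SULT2A1 and 3.20 for IFIH1. Among falls, it was -5.37 for RASSF9, -3.05 for CCN2, -3.92 for PDE4B, -4.57 for CASC19 and -2.36 for TCIM. It was -3.89 for LINC02331, -3.94 for TACC1, -1.24 for ANKRD1 and -3.73 for ABCD2. The difference was not called for PLA1A (0.64 ± 0.59), DSCAML1 (-2.56 ± 1.14) and ADAM28 (-2.69 ± 1.67). SULT2A1, counted among the 19, averaged 0.250 CPM with lenvatinib and 0.412 with DMSO in PLC/PRF/5, under the filter of 0.5 CPM. It entered the fit only through Huh7, and its value in PLC/PRF/5 rests on few counts. These genes were picked for large changes in Huh7.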

How the results depend on the processing

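The 3753 calls numbered 2681 with a replicate block (2579 of them among the 3753). Libraries with the same number had residual correlations near 0 (0.0275, 0.0220 and -0.0277), yet 4 of 6 libraries correlated best with their own number. Whether the numbers mark a pairing was not tested, and the block pairs by number only. The number of calls ran from 2463 to 3491 with any 1 library left out, the rises from 1109 to 1621, the falls from 1337 to 1870 and the calls of at least 2-fold from 678 to 847. DESeq2 made 4809 calls, limma on log2(FPKM + 1) 3589, and the fit of all 12 libraries 3903. The 848 calls of at least 2-fold were 487 with a mean CPM of at least 5 and 274 with limma, which compresses low levels. The difference between the lines was called for 3235 genes with DESeq2, 1639 with the replicate block and 1764 to 2261 with any 1 library left out. Of 213 named genes called, 181 were called in every alternative they were tested in, 32 lost the call in at least 1 and none turned direction. Among genes not called in the main fit, STX6 turned from -0.03 to 2.32 with limma on FPKM, where it was called (limma adjusted p = 6.286e-05). In counts it turned to 0.018 without DMSO replicate 1 and to 0.042 without lenvatinib replicate 3 (range with any 1 library left out -0.091 to 0.042). FGFR3 turned from 0.17 to -0.21 without lenvatinib replicate 2 (range -0.21 to 0.33). The cause was not tested. With 3 libraries a group, a gene that was not called may still have changed.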
